A study of Danio rerio with 15 samples.

Results

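pou5f3 and nanog encode a pair of transcription factors that the zebrafish mother loads into the egg. They are 2 of the 32520 genes counted in the series, chosen by their Ensembl IDs (ENSDARG00000044774 for pou5f3 and ENSDARG00000075113 for nanog), and both were among the 21614 genes that passed a filter on low counts. The reference table of gene names pairs both IDs with these symbols. RNA was sequenced from pools of 10 whole embryos at 50% epiboly, the onset of gastrulation. Counts at this stage do not tell RNA loaded by the mother from RNA made by the embryo. The 15 samples form 5 groups of 3, which are embryos of the unmutated strains TL and Tu, axin2-/- mutants made in TL, nkd1-/- mutants made in Tu, and axin2-/-;nkd1-/- double mutants bred by crossing the mutant lines. Axin2 and Nkd1 are feedback inhibitors of Wnt signalling, and the mutations were made with Cas9. No age is labelled beyond the stage, and no drug or other treatment is labelled. Per the series record, replicates share their parents and differ in the day of collection, so the spread between replicates is that between collections and not that between families. Genotype, line and parents cannot be told apart in this design.

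Before its own genome is switched on, the embryo lives on maternal RNA and protein. Pou5f3, a POU domain protein related to mammalian Oct4, and Nanog, a homeodomain protein, act with a SoxB1 protein to open chromatin at early genes, and the embryo fails to activate many of these genes when the factors are lost together. Maternal Nanog is also needed for the yolk syncytial layer, the nucleated layer beneath the embryo, where it switches on the homeobox gene mxtx2. Pou5f3 keeps roles during gastrulation in dorsoventral patterning and in the formation of endoderm.

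Library totals ran from 44098543 to 68135442 counts with a median of 51661037, and the smallest count of either gene in any sample was 5892. Levels are given as CPM, counts relative to library size, after scaling by TMM, which corrects library size for composition, with factors between 0.93 and 1.06. Differences were tested in edgeR's quasi-likelihood model over all 15 samples, with Benjamini-Hochberg adjustment over all genes that passed the filter, and an adjusted p under 0.05 counted as a call. The genotype labels were not checked against the transcripts of axin2 and nkd1, since 0 of these 2 symbols were paired with an ID in the table of names.

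nanog RNA was lower in both groups that carry the nkd1 mutation. In Tu embryos nanog was at 509, 463 and 337 CPM in replicates 1 to 3, and in nkd1-/- embryos it was at 273, 122 and 191 CPM. The highest nkd1-/- sample lay under the lowest Tu sample, so the groups did not overlap. The group means were 437 ± 89.1 CPM in Tu and 195 ± 75.6 CPM in nkd1-/- (SD, n = 3 each), and the fitted level in nkd1-/- was 44.7% of that in Tu. The log2 fold change was -1.16 ± 0.21 (SE), with a 95% interval of -1.60 to -0.72 and an edgeR adjusted p of 0.00053. This SE rests on a spread shared by all 5 groups. The SD was widest in nkd1-/- and Tu, at 38.7% and 20.4% of the mean. A log2 fold change at least as low was found in 8.62% of all genes tested, and 21.2% of genes tested were lower in nkd1-/- with no overlap of the groups. These are pools of whole embryos, in which fewer cells of a type and less RNA per cell cannot be told apart.

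In the double mutant nanog was at 221, 193 and 213 CPM in replicates 1 to 3, a mean of 209 ± 14.5 CPM (SD, n = 3). All 3 values lay within the range of the nkd1-/- samples. The double mutant was compared with the mean of TL and Tu because it descends from both strains, and this comparison shares the Tu samples with the one above. The log2 fold change was -1.10 ± 0.19 (SE), to 46.5% of the mean of the strains, with an edgeR adjusted p of 0.000231. With TL alone as the control it was -1.15, and with Tu alone -1.06.

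nanog was not called in embryos that lack axin2 alone. It was at 464, 425 and 498 CPM in TL and at 408, 338 and 451 CPM in axin2-/-, in replicates 1 to 3 of each group. The groups overlapped, with means of 462 ± 36.3 and 399 ± 57.1 CPM (SD, n = 3 each). The log2 fold change of -0.21 ± 0.21 did not pass the test (SE; edgeR adjusted p = 0.511), and its 95% interval ran from -0.65 to 0.22, so differences of that size were not detectable at this spread. The unmutated strains were also close, with a log2 difference of 0.08 (TL minus Tu, 95% interval -0.35 to 0.52, edgeR adjusted p = 0.795).

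**Figure D1:**
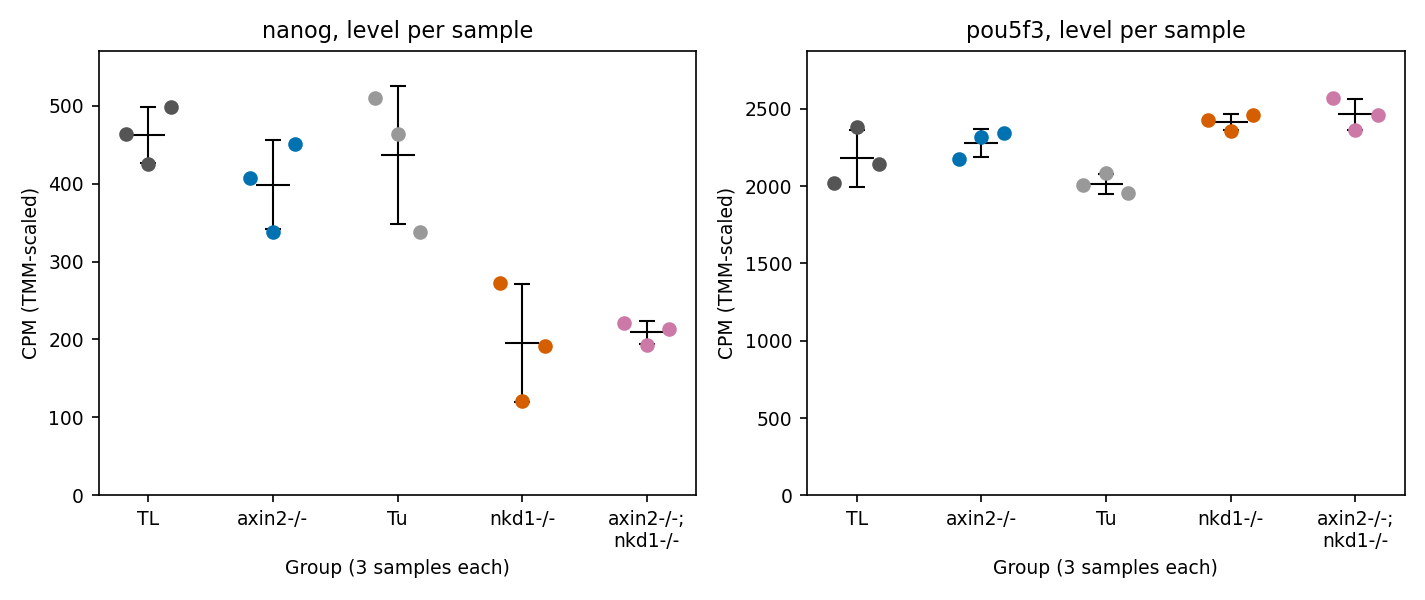
Levels of nanog (left) and pou5f3 (right) in CPM on linear axes from 0, by group. Each point is 1 sample, the long tick is the mean of 3 and the bar is the SD. The 6 samples with the nkd1 mutation lie between 122 and 273 CPM for nanog, under the 9 other samples at 337 to 509 CPM, while pou5f3 lies between 1955 and 2568 CPM in all 15.

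Across the 5 groups the order of mean nanog level was TL, Tu, axin2-/-, the double mutant and nkd1-/-. The step from axin2-/- to the double mutant was the only one between neighbours in this order that passed the test, with a log2 difference of 0.93 ± 0.21 (SE; edgeR adjusted p = 0.00214). The other neighbours did not differ beyond their spread, with edgeR adjusted p values of 0.795 for TL and Tu, 0.656 for Tu and axin2-/-, and 0.823 for the double mutant and nkd1-/-. In the last of these the log2 difference was 0.10 (double mutant minus nkd1-/-), and its 95% interval of -0.34 to 0.53 leaves room for a difference either way. Without nkd1-/- replicate 2, the lowest sample of all for nanog, that difference changed sign to -0.15. The single mutants differed directly, with nanog 2.04-fold higher in axin2-/- than in nkd1-/- (edgeR adjusted p = 0.000966), a comparison that also carries the strains in which the mutants were made. Taking the 6 samples that carry the nkd1 mutation together, their highest nanog level was 273 CPM and the lowest of the 9 other samples was 337 CPM. Of all genes tested, 3.67% were lower in these 6 samples without overlap, and 3.45% were higher.

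In nkd1-/- against Tu pou5f3 moved the other way and by much less. It was at 2005, 2082 and 1955 CPM in Tu and at 2426, 2358 and 2460.4 CPM in nkd1-/-, in replicates 1 to 3. The 3 Tu samples were among the 4 lowest of the 15, and the groups did not overlap. The means were 2014 ± 63.9 CPM in Tu and 2415 ± 52.2 CPM in nkd1-/- (SD, n = 3 each). This was a 1.20-fold rise, a log2 fold change of 0.26 ± 0.07 (SE; 95% interval 0.11 to 0.42, edgeR adjusted p = 0.0137). Of the genes tested, 19.7% were higher in nkd1-/- with no overlap of the groups, and 66.6% had an absolute log2 fold change at least as large. Against TL, pou5f3 in nkd1-/- was not called (log2 fold change 0.15, edgeR adjusted p = 0.135). axin2-/- was also above Tu, by a log2 fold change of 0.18 (edgeR adjusted p = 0.0707). That difference passed when totals were not scaled by TMM (edgeR adjusted p = 0.0412).

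In the double mutant pou5f3 was at 2568, 2365 and 2462 CPM in replicates 1 to 3, a mean of 2465 ± 101 CPM (SD, n = 3). Against the mean of TL and Tu it was 1.18-fold higher, a log2 fold change of 0.23 ± 0.06 (SE; edgeR adjusted p = 0.00814). Of the 9 fits that each dropped 1 library, 1 lost this call, the fit without double mutant replicate 1, at 0.20 (edgeR adjusted p = 0.0538). Against TL alone the log2 fold change was 0.18 (edgeR adjusted p = 0.074). In 6 fits that each left out 1 library it ranged from 0.12 to 0.24. Only the fit without TL replicate 2 passed (edgeR adjusted p = 0.0318), and the others reached 0.256. The double mutant overlapped TL, since double mutant replicate 2 lay under TL replicate 2 at 2380.3 CPM. Unlike for nanog, the 6 samples with the nkd1 mutation overlapped the 9 others. Their lowest pou5f3 level was 2358 CPM, and the highest of the others was 2380.3 CPM.

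In TL embryos pou5f3 was at 2017, 2380.3 and 2143 CPM, and in axin2-/- at 2179, 2318 and 2342 CPM. The 3 axin2-/- samples lay inside the range of TL, and the means were 2180.3 ± 184 and 2279 ± 88.2 CPM (SD, n = 3 each). The log2 fold change of 0.06 did not pass the test (95% interval -0.09 to 0.22, edgeR adjusted p = 0.593). In order of mean level the groups ran double mutant, nkd1-/-, axin2-/-, TL and Tu. No neighbours in this order differed at an adjusted p under 0.05 in edgeR (adjusted p values of 0.856, 0.403, 0.593 and 0.261 from the top). The top and the bottom did, with a log2 difference of 0.29 between the double mutant and Tu (edgeR adjusted p = 0.00557). This pair was picked as the ends of the order in these same data. The adjustment runs over genes and not over pairs of groups, and no share over all genes is given for it.

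**Figure D2:**
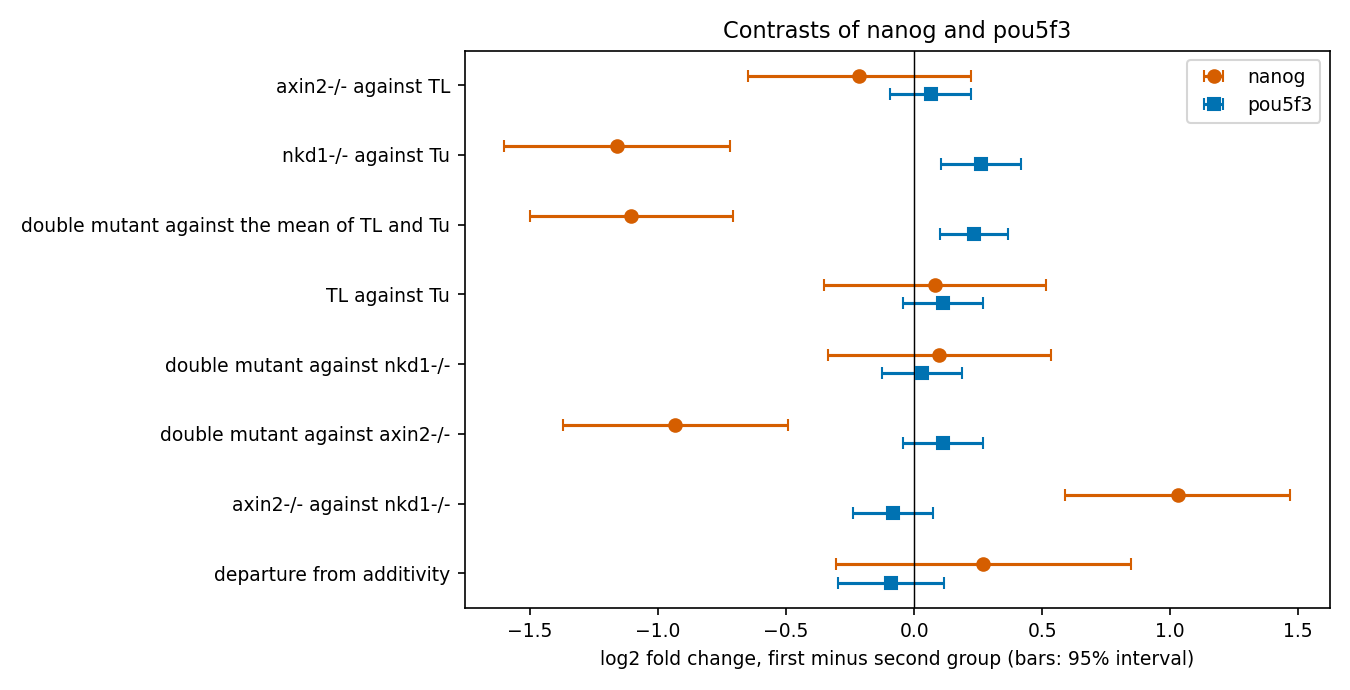
Log2 fold changes of nanog (circles) and pou5f3 (squares) in 8 comparisons, first named group minus second, with 95% intervals from the edgeR fit. The intervals of nanog lie below 0 for nkd1-/- and Tu, for the double mutant set against both strains and for the double mutant and axin2-/-, and above 0 for axin2-/- and nkd1-/-. Those of pou5f3 lie above 0 for nkd1-/- and Tu and for the double mutant set against both strains.

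Counted over both genes, nkd1-/- against Tu called 2 of 2, where 29.3% of all genes tested were called, and the double mutant set against both strains called 2 of 2, where 37.4% were. A difference of any kind among the 5 groups was called for 2 of 2 by edgeR's F test, with adjusted p values of 7.59e-05 for nanog and 0.0142 for pou5f3, against 67.2% of all genes. The double mutant against axin2-/- called 1 of 2, with nanog lower at a log2 fold change of -0.93, against 38.6% of all genes, and axin2-/- against nkd1-/- called 1 of 2, against 37.3%. These shares are high, so a call alone does not set either gene apart. In axin2-/- against TL 0 of 2 genes were called (21.2% of all genes), in TL against Tu 0 of 2 (31.1%) and in the double mutant against nkd1-/- 0 of 2 (11.5%). In each of these 3 comparisons edgeR gave 0 of 2 at an unadjusted p under 0.05, and DESeq2 also called 0 of 2.

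The double mutant was also compared with the sum of the single mutant effects, with the mean of TL and Tu as its control. This asks whether the effect of losing one gene depends on the other, if its background lies midway between the strains. The departure from that sum was 0.27 ± 0.27 on the log2 scale for nanog (SE; 95% interval -0.31 to 0.85, edgeR adjusted p = 0.534). For pou5f3 it was -0.09 ± 0.10 (SE; 95% interval -0.30 to 0.12, edgeR adjusted p = 0.562). edgeR and DESeq2 each called 0 of 2 genes, and 0 of 2 had an unadjusted p under 0.05 in edgeR, where 19.7% of all genes tested were called.

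The ratio of the 2 genes within a sample does not depend on how libraries are scaled, and gene length cancels when samples are compared. For each 100 pou5f3 counts there were 25.4, 22.2 and 17.3 nanog counts in the Tu samples and 11.2, 5.16 and 7.77 in the nkd1-/- samples. The double mutant samples gave 8.60, 8.15 and 8.67, the most even of the 5 groups. TL gave 23.0, 17.9 and 23.2, and axin2-/- 18.7, 14.6 and 19.3. The 6 samples with the nkd1 mutation were thus the lowest 6 of 15. The same 6 were the lowest for nanog alone, so this is no separate result. No share over other pairs of genes was computed. The log2 ratio of pou5f3 to nanog was higher in nkd1-/- than in Tu by 1.48 ± 0.36 (SE), in axin2-/- than in TL by 0.29 ± 0.18, and in TL than in Tu by 0.01 ± 0.21, and it was lower in the double mutant than in nkd1-/- (-0.14 ± 0.33). Exact two-sided permutation tests over 20 assignments gave p = 0.1, 0.3, 1 and 0.7 in that order (0.4, 0.6, 1 and 0.93 after Benjamini-Hochberg adjustment over these 4 comparisons). With 3 samples against 3 the smallest possible p is 0.1, so this test could not reach 0.05.

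The genes differed in how much they varied between collections of one group. nanog spread 2.24-fold from the lowest to the highest nkd1-/- sample, 1.51-fold in Tu, 1.33-fold in axin2-/-, 1.17-fold in TL and 1.15-fold in the double mutant. pou5f3 spread at most 1.18-fold, in TL. Counting error is far smaller than either. At the smallest count, 5892 for nanog in nkd1-/- replicate 2, the exact 95% Poisson interval ran from 119 to 125 CPM around 122 CPM, and such intervals cover counting error only. The biological coefficient of variation, edgeR's estimate of the spread beyond counting, was 18.3% for nanog, above the 12.1% of the trend at its abundance, and 8.24% for pou5f3, below its trend of 11.5%. Only 0.153% of the genes tested had a lower value than pou5f3, and 38.3% had a lower value than nanog.

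Among 14932 other genes averaging 1 CPM or more, those whose log2 CPM had the highest Pearson's r with nanog over the 15 samples were lrmp (ENSDARG00000045574) and CNOT8 (ENSDARG00000020043). In zebrafish lrmp is a maternal-effect gene needed for the egg and sperm pronuclei to meet, and CNOT8 encodes a deadenylase of the CCR4-NOT complex, which shortens the poly(A) tails of mRNAs. This r was 0.981 for both, and Spearman's rho was 0.932 for lrmp and 0.925 for CNOT8, which ranked 18 and 26 by rho. These are descriptions over samples that fall into groups and share libraries and scaling, and the genes were picked for this likeness. After the group means were removed, r was 0.929 for lrmp and 0.939 for CNOT8, ranks 33 and 21. This is no separate test, since the same deviations are part of the r by which the genes were picked.

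**Figure D3:**
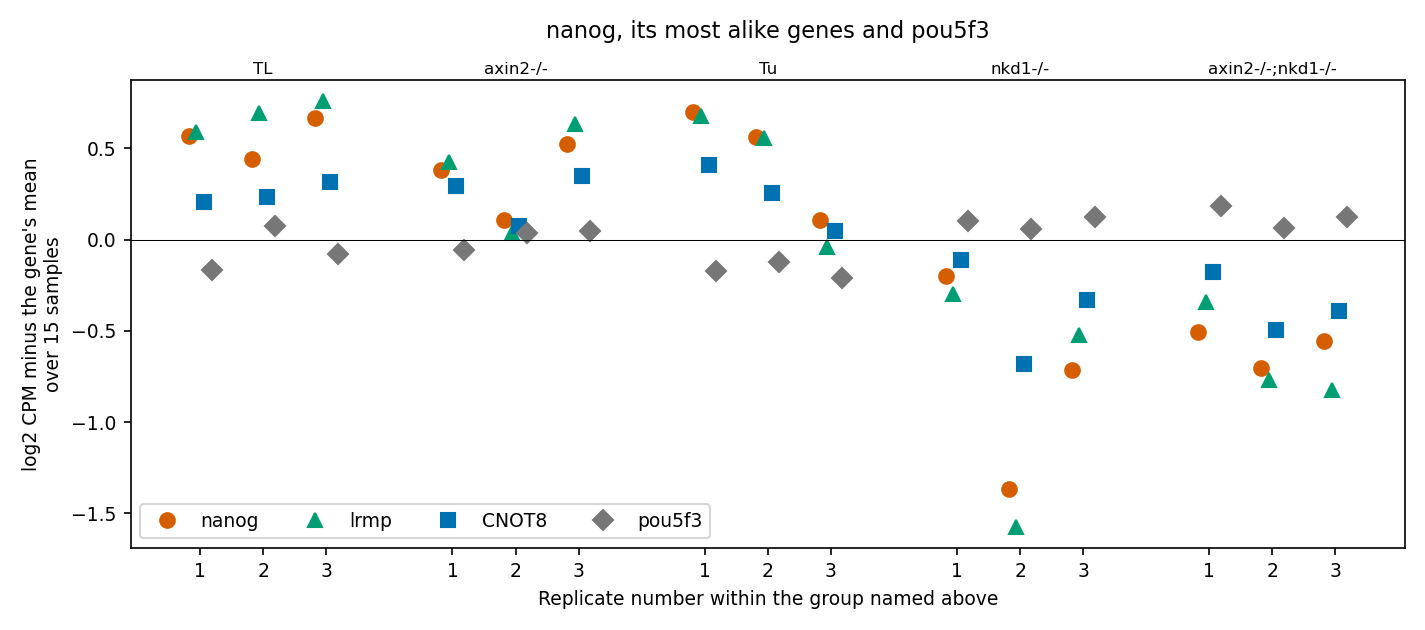
Log2 CPM of nanog, lrmp, CNOT8 and pou5f3 in each of the 15 samples, minus each gene's own mean over all samples, with a linear axis on that log2 scale. Each marker is 1 sample. The first 3 genes are lowest in nkd1-/- replicate 2, where nanog is at 122 CPM, lrmp at 31.0 CPM and CNOT8 at 106 CPM, and pou5f3 stays close to its mean throughout.

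Sample by sample, lrmp was at 147, 135 and 89.5 CPM in Tu and at 74.8, 31.0 and 64.2 CPM in nkd1-/-, in replicates 1 to 3. CNOT8 was at 225, 202 and 175 CPM in Tu and at 157, 106 and 134 CPM in nkd1-/-. In both, as for nanog, Tu replicate 3 was the lowest sample without the nkd1 mutation and nkd1-/- replicate 2 was the lowest of all 15. For nanog, Tu replicate 3 at 337.3 CPM was almost level with axin2-/- replicate 2 at 337.7 CPM. Both genes were picked for likeness to nanog over these samples, so sharing its low samples is no separate result. The replicates were collected on different days, per the series record.

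For pou5f3 the most alike genes by Pearson's r were UNC5B (ENSDARG00000033327), a netrin receptor gene, with r = 0.932 and rho = 0.864, and the uncharacterised si:dkey-187a12.4 (ENSDARG00000091897), with r = 0.918 and rho = 0.882. By rho they ranked 12 and 4, and after the group means were removed r was 0.73 and 0.583, ranks 52 and 352. Both were scarce, with group means of 0.67 to 3.13 CPM for UNC5B and 0.24 to 4.46 CPM for si:dkey-187a12.4. nanog was not among the genes that followed pou5f3. The r between nanog and pou5f3 was -0.641 over the 15 samples (rho -0.679), and 0.164 after the group means were removed. The latter r pools the deviations of all 5 groups and was given no interval. Whether the genes go opposite ways among the collections of one group was not resolved.

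Other genes that act with Pou5f3 and Nanog were taken from lists by symbol. sox19b, the maternal SoxB1 partner of Pou5f3 and Nanog, was at 18.7, 14.6 and 14.1 CPM in Tu and at 30.9, 43.8 and 30.8 CPM in nkd1-/-, in replicates 1 to 3. It was higher in every nkd1-/- sample than in any Tu sample, as were 19.7% of the genes tested. The rise was 2.23-fold (log2 fold change 1.16 ± 0.16 SE, edgeR adjusted p = 3.71e-05). In the double mutant it was at 43.2, 43.8 and 45.6 CPM, 2.59-fold above the mean of the strains (edgeR adjusted p = 5.79e-07). In axin2-/- against TL it was called at 1.38-fold (edgeR adjusted p = 0.0402), and that call was lost without any one of the 6 samples (edgeR adjusted p from 0.0527 to 0.176). foxh1, a cofactor of Nodal signalling, was called lower in nkd1-/- at a log2 fold change of -0.32 (edgeR adjusted p = 0.0204), which was lost without Tu replicate 3 (adjusted p = 0.0871) or nkd1-/- replicate 1 (adjusted p = 0.0775), and in a fit of only these 2 groups (adjusted p = 0.0659). Of 4 SoxB1 genes 2 were paired, and sox19a was not called in any of the 3 mutant comparisons with the strains.

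mxtx2, the direct target of Nanog in the yolk syncytial layer, was lower in both groups that carry the nkd1 mutation. Whether its level depends on that of nanog was not tested. It was at 47.2, 50.3 and 42.3 CPM in Tu and at 22.5, 19.4 and 19.1 CPM in nkd1-/-, in replicates 1 to 3, and fell to 0.436 of the Tu level (log2 fold change -1.20 ± 0.17 SE, edgeR adjusted p = 6.37e-05). In the double mutant it was at 19.0, 10.4 and 12.0 CPM, a log2 fold change of -1.86 ± 0.16 (SE) against the mean of the strains (edgeR adjusted p = 2.15e-07). In axin2-/- it was at 78.5, 67.9 and 67.5 CPM and in TL at 51.6, 56.1 and 54.3 CPM. The log2 fold change of 0.40 ± 0.17 (SE) missed the threshold (edgeR adjusted p = 0.101). The double mutant lay below nkd1-/- for mxtx2 (log2 fold change -0.56, edgeR adjusted p = 0.0424), where 11.5% of all genes tested were called. This call was not refitted without single samples. The closest samples were double mutant replicate 1 at 19.0 CPM and nkd1-/- replicate 3 at 19.1 CPM. For nanog the same comparison was not called, and whether mxtx2 and nanog differ in it was not tested.

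**Figure D4:**
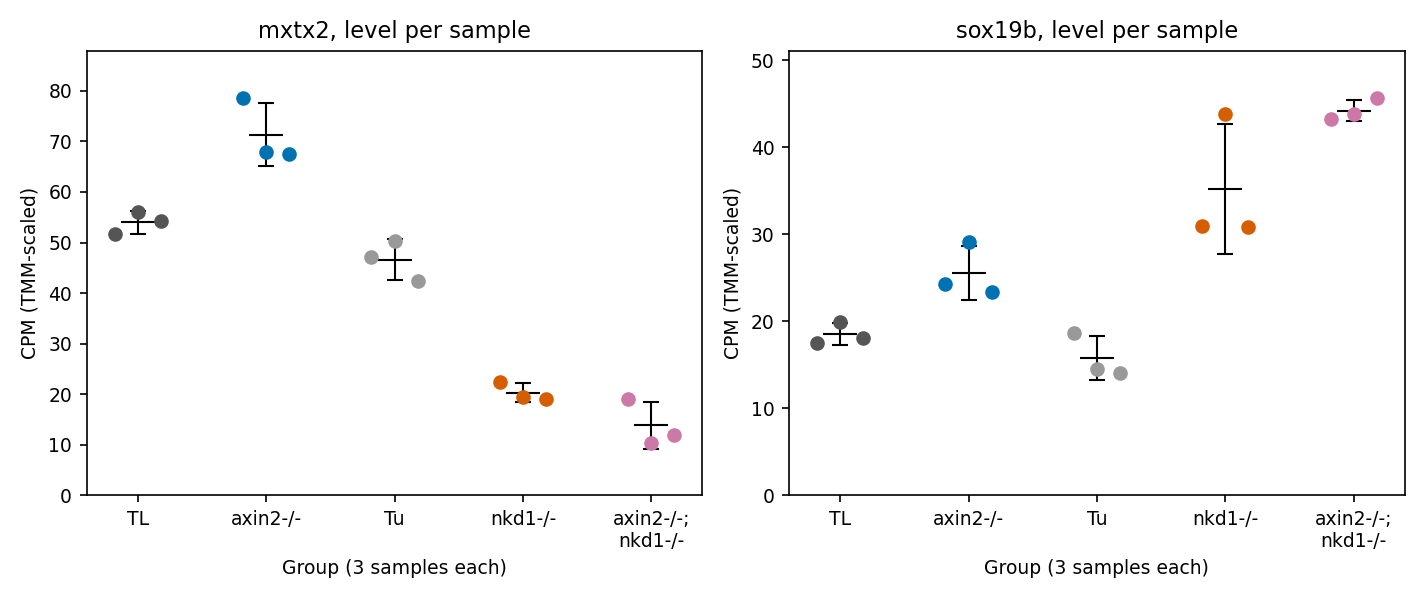
Levels of mxtx2 (left) and sox19b (right) in CPM on linear axes from 0, by group, with points for samples, the long tick for the mean of 3 and bars for the SD. The 6 samples with the nkd1 mutation lie at 10.4 to 22.5 CPM for mxtx2, below the others at 42.3 to 78.5 CPM, and at 30.8 to 45.6 CPM for sox19b, above the others at 14.1 to 29.1 CPM. Of all genes tested, 3.67% lie lower in these 6 samples without overlap and 3.45% higher.

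Of 16 early zygotic genes listed with these factors, 13 were paired with an ID and all 13 were tested. In nkd1-/- against Tu 2 were higher, 2 were lower and 9 were not called, with a median log2 fold change of -0.0056, beside 0.0032 over all genes tested. The 4 calls of 13 stand beside 29.3% of all genes, so the list is near the background. The lower ones were mxtx2 and noto, a notochord gene (log2 fold change -0.64, edgeR adjusted p = 0.000193), and the higher ones were the mesoderm T-box genes tbxta (0.64, adjusted p = 0.00316) and tbx16 (0.37, adjusted p = 0.00399). noto and tbx16 were also called between TL and Tu (edgeR adjusted p = 0.0109 and 0.00139). In the double mutant, set against both strains, 3 were higher, 3 lower and 7 not called, with a median of 0.06, beside 0.03 over all genes, of which 37.4% were called. Of these 6 calls, noto was lost without TL replicate 3 or any one of the double mutant replicates (edgeR adjusted p from 0.0512 to 0.0929), and chrd without double mutant replicate 2 (adjusted p = 0.0607). In axin2-/- against TL 1 was higher, 2 were lower and 10 were not called, with a median of -0.23, beside 0.01 over all genes, of which 21.2% were called. Of these 3 calls, that of vent was lost without any one sample other than axin2-/- replicate 3 (edgeR adjusted p from 0.05 to 0.0994), and that of chrd without TL replicate 1, TL replicate 3 or axin2-/- replicate 2 (0.0806, 0.0634 and 0.11).

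Markers of other cells of the embryo were read beside these results. For the enveloping layer, the outer skin of the embryo, 4 of 4 marker genes (krt4, krt5, krt8 and cldne) were tested and none was at 0. Their summed level ran from 5288 to 6721 CPM in TL, 5655 to 7010.1 CPM in axin2-/-, 6271 to 7629.9 CPM in Tu, 6913 to 10280.1 CPM in nkd1-/- and 7634 to 8258 CPM in the double mutant. In nkd1-/- against Tu 1 of the 4 was called higher by edgeR, krt5 (log2 fold change 0.60, adjusted p = 0.00922), beside 29.3% of all genes tested that were called. Without nkd1-/- replicate 2 krt5 was not called (adjusted p = 0.0646). For mesoderm and deep cells 2 of 3 markers were tested, tbxta and tbx16, both higher in nkd1-/- as given above. For the yolk syncytial layer 1 of 3 was tested, mxtx2 itself, and for germ cells 1 of 4, tdrd7a, which was higher in nkd1-/- (log2 fold change 0.84, edgeR adjusted p = 9.21e-05) and also higher in TL than in Tu (0.63, adjusted p = 0.000954). In axin2-/- against TL tdrd7a was lower (log2 fold change -0.40, edgeR adjusted p = 0.0287), a call lost without TL replicate 2, TL replicate 3 or axin2-/- replicate 2. There 21.2% of all genes were called. In the double mutant, set against both strains, krt5 (log2 fold change 0.56, edgeR adjusted p = 0.00395), krt4 (0.34, 0.0219) and tdrd7a (0.43, 0.00399) were called higher and cldne lower (-0.25, 0.0382). With 37.4% of all genes called there, a call alone does not set a marker apart. The call of krt4 was lost without double mutant replicate 2 or 3 (adjusted p = 0.0915 and 0.058), and that of cldne in 6 of 9 fits without 1 sample (0.0617 to 0.111). With so few markers the share of each cell type could not be followed, and its part in the levels of nanog and pou5f3 was not tested. Of 8 oocyte and maternal transcripts 2 were tested. h1m, the maternal linker histone, was higher in nkd1-/- than in Tu (log2 fold change 0.41, edgeR adjusted p = 0.0344, from 0.0544 to 0.159 in the 5 of 6 fits without 1 sample that lost the call). It was also higher in axin2-/- than in TL (log2 fold change 0.50, edgeR adjusted p = 0.0164), a call lost in 4 of 6 fits without 1 sample. h1m was lower in the double mutant when both strains were the control (log2 fold change -0.61, edgeR adjusted p = 0.000941) but was not called with Tu alone (-0.31, adjusted p = 0.0893), and it also differed between TL and Tu (0.60, adjusted p = 0.00311). org was not called in any of these comparisons.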

How the data were processed

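The authors deposited one table of raw counts, whole numbers per Ensembl gene ID that are not normalized, with a column for each of 15 samples. Each library came from 10 embryos, per the labels' protocols. Per the submitters' processing notes the build was GRCz11 and edgeR 3.30.3 was used. The aligner, counter and use of strand are not given in the sources used here, so overlapping genes may share reads. Totals ran from 44098543 to 68135442 counts. Of 32520 IDs, 29201 had a symbol in the reference table.

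Here genes were filtered with filterByExpr (minimum count 10, minimum total 15), scaled by TMM and fitted with glmQLFit and glmQLFTest in edgeR 4.0.16 (R 4.3.3). Group was the only factor, leaving 10 residual degrees of freedom, and p-values were adjusted by Benjamini-Hochberg over 21614 genes. Intervals and p-values used edgeR's total degrees of freedom, which add to the residual ones those of a variance estimate shared over genes. The fit was tested on simulated data. Likeness used log2 CPM with a prior count of 2. Named genes were the 2 members, list genes and the 2 most alike genes of each member. The members and lists were chosen with earlier results of these data known. The counts of the list of activation factors are not reported here. Alternatives were DESeq2 1.42.0, its size factors, unscaled totals, no filter, fewer groups, a replicate block, thinned counts, either strain alone as control and fits without each sample. Replicate pairs of a group differed by a chi-square of 12.1 to 66.8 per degree of freedom, so each was counted as its own sample.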

Additional observations from a re-analysis of the deposited data

Results flagged for a closer look

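The departure from additivity was called for 3 of the list genes and for neither nanog nor pou5f3. It equals the interaction only where the background of the double mutant lies midway between TL and Tu, which was not tested. Of the 13 early zygotic genes tested 1 was called higher and 1 lower. Of the 2 oocyte and maternal transcripts tested 1 was called lower, and all 4 enveloping layer markers were not called. mxtx2 lay 1.06 below the sum of the single mutant effects (log2 departure -1.06 ± 0.22 SE, edgeR adjusted p = 0.00304). It was not called in axin2-/- against TL (log2 fold change 0.40, edgeR adjusted p = 0.101). In the double mutant it was called lower than in nkd1-/- (log2 fold change -0.56, edgeR adjusted p = 0.0424), a call not refitted without single samples. Leaving out 1 sample at a time, the departure ran from -1.37 to -0.90. h1m, the maternal linker histone, departed by -1.52 ± 0.18 (SE, edgeR adjusted p = 2.66e-05). Its mean was 588 CPM in axin2-/-, 417 CPM in TL, 364 CPM in nkd1-/-, 274 CPM in Tu and 221 CPM in the double mutant. ved, a ventral repressor gene, departed by 0.61 ± 0.16 (SE, edgeR adjusted p = 0.0114). Of all genes tested 19.7% were called in this contrast, so a call alone does not set a list gene apart. Genotype, line and parents cannot be told apart in it.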

How the results depend on the processing

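Of 126 alternative fits of the 18 results for nanog and pou5f3, other than those that left out a sample, 125 kept their direction and their side of the threshold. The exception was pou5f3 in the double mutant with TL alone as control, at 0.18 on the log2 scale (edgeR adjusted p = 0.074). Of 150 fits without 1 sample, 146 kept both. The ranges of the others were 0.20 to 0.27 for pou5f3 in the double mutant with both strains as control, -0.0076 to 0.055 for pou5f3 in the double mutant against nkd1-/-, -0.15 to 0.42 for nanog in the double mutant against nkd1-/-, and -0.072 to 0.21 for nanog in TL against Tu. The log2 ratio ranged from -0.42 to 0.14 in the double mutant against nkd1-/- and from -0.11 to 0.16 in TL against Tu. The nanog difference in nkd1-/- against Tu ranged from -1.48 without nkd1-/- replicate 1 to -0.91 without nkd1-/- replicate 2, and its edgeR adjusted p from 3.7e-05 to 0.00408. Over the alternatives that kept all samples of the groups compared, the edgeR or DESeq2 adjusted p in this comparison ran up to 0.0082 for nanog. For pou5f3 it ran up to 0.0498.

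With the replicate number as a block, nanog in nkd1-/- against Tu was at -1.20 and pou5f3 at 0.26, and no call of either gene changed. The correlation of deviations between samples that bear the same number averaged 0.021 over 30 pairs (-0.068 to 0.14). The labels do not say whether a number marks a shared day, and the samples were treated as unpaired. List gene calls were refitted only in each single mutant against its strain, the double mutant against both strains and the departure from additivity. Of these 30 calls, 18 were kept without each sample in turn, and 1 of 207 other fits lost a call. The lost call was that of foxh1 in nkd1-/- with only the groups compared. With 3 samples a group from one set of parents, differences within the printed intervals could not be resolved, and depth was not the limit.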
